A study of Homo sapiens with 2 samples.

Results

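Cyclins and the kinases they activate were examined as binding targets of ETV4, an ETS-family transcription factor, in A549 cells. The 10 genes were fixed by name (CCND1, CCND2, CCND3, CDK4, CDK6, CCNE1, CCNE2, CDK2, CCNA2 and CCNB1), out of 20037 protein-coding genes in RefSeq, and all ETV4 peaks whose interval came within 20 kb of a gene were taken. A549 is an established human lung adenocarcinoma line, here carrying an shRNA against ETV4 and re-transfected with Flag-tagged ETV4. Chromatin was precipitated with an anti-Flag antibody in 1 library, with 1 input library as control, so there is no replicate and no test between conditions. The precipitated protein is the tagged, transfected ETV4, and endogenous ETV4 was not measured. A peak list holds no transcript levels, so neither the cell label nor the expression of these genes could be checked, and a peak does not show that a gene is regulated.

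Cyclins are the regulatory subunits of cyclin-dependent kinases (CDKs), and their rise and fall moves cells through the division cycle. D-type cyclins, made in response to growth signals, pair with CDK4 and CDK6 in G1 and phosphorylate RB. E-type cyclins then pair with CDK2 at the entry into S phase. Cyclin A2 acts with CDK2 and CDK1 from S phase into G2, and cyclin B1 acts with CDK1 to start mitosis. ETS factors such as ETV4 bind DNA around a GGAA core and lie downstream of RAS and ERK signaling, the same route that induces cyclin D1 in many cell types.

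The list held 54389 peaks with a median fold enrichment of 9.63 over the control level and a median summit pileup of 26 fragments. Fold enrichment is the ratio of the immunoprecipitate to the local control at the summit. The interval given after a fold is its 95% Poisson counting interval, with the control level held fixed, and it covers no biological or technical variation. The pileup of each peak was solved from its fold and p-value, because the list does not state it. Where RefSeq promoter entries gave a transcription start, a start peak was a peak within 1 kb of any such start. This held for 6 of the 10 genes. For CCND1, CCND2, CCNE2 and CDK2 a peak within 1 kb of either gene end was counted, and their ends are called lower and upper by coordinate.

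All 10 genes had a peak within 20 kb, as did 86.1% of all protein-coding genes, and 7 had such a peak with a fold over 10, against 72.3%. All 10 also had a start peak, against 62.4% counted in the same way. The strength of these start peaks varied widely. A fold of 10 was exceeded at 5 of the 10 genes (50%), namely CCNE2, CCND3, CDK6, CCND1 and CCND2, close to the 45.5% of all protein-coding genes. The other 5 start peaks, at CCNE1, CDK4, CCNB1, CDK2 and CCNA2, lay below the lower quartile of the strongest start peaks of all protein-coding genes that had one, 9.37. The median over those genes was 17.8.

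In total, 60 peaks lay within 20 kb of the 10 genes, and no peak served more than 1 of them. The 5 G1 genes had 46 peaks, the 3 S-entry genes 10, and the 2 genes of S phase to mitosis 4. The G1 genes also had the longer spans, with a median length of 31592 bp against 12322 bp and 9268 bp. Per 100 kb of window, pooled over the genes of each group, the G1 genes had 7.71 peaks, the S-entry genes 6.46 and the mitotic genes 4.06. The pooled G1 value includes CDK4, with 31.4 per 100 kb, which was the nearest protein-coding gene for 1 of its 14 peaks. Single G1 genes ranged from 2.58 (CDK6) to 31.4, S-entry genes from 3.82 (CCNE1) to 8.70 (CDK2). The mitotic genes had 3.91 (CCNB1) and 4.22 (CCNA2), so the pooled values do not order the groups. Taken gene by gene, the median was 7.41 peaks per 100 kb over the 10 genes and 2.88 over all protein-coding genes. The peaks themselves were ordinary in strength. Their median fold was 8.80, their median width 528 bp against 519 bp for all peaks, and 45.0% of them (Wilson 95% interval 33.1% to 57.5%) had a fold over 10, against 48.5% of all peaks. By group, 24 of 46 peaks near G1 genes, 3 of 10 near S-entry genes and none of 4 near the mitotic genes passed that fold. Their Wilson 95% intervals, 38.1% to 65.9%, 10.8% to 60.3% and 0% to 49.0%, overlapped and each held the 48.5% of all peaks. The peak farthest inside the 20 kb limit was 19461 bp from CDK4 with a fold of 17.6, and the nearest outside it was 20157 bp from CCNE1 with a fold of 3.21.

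**Figure D1:**
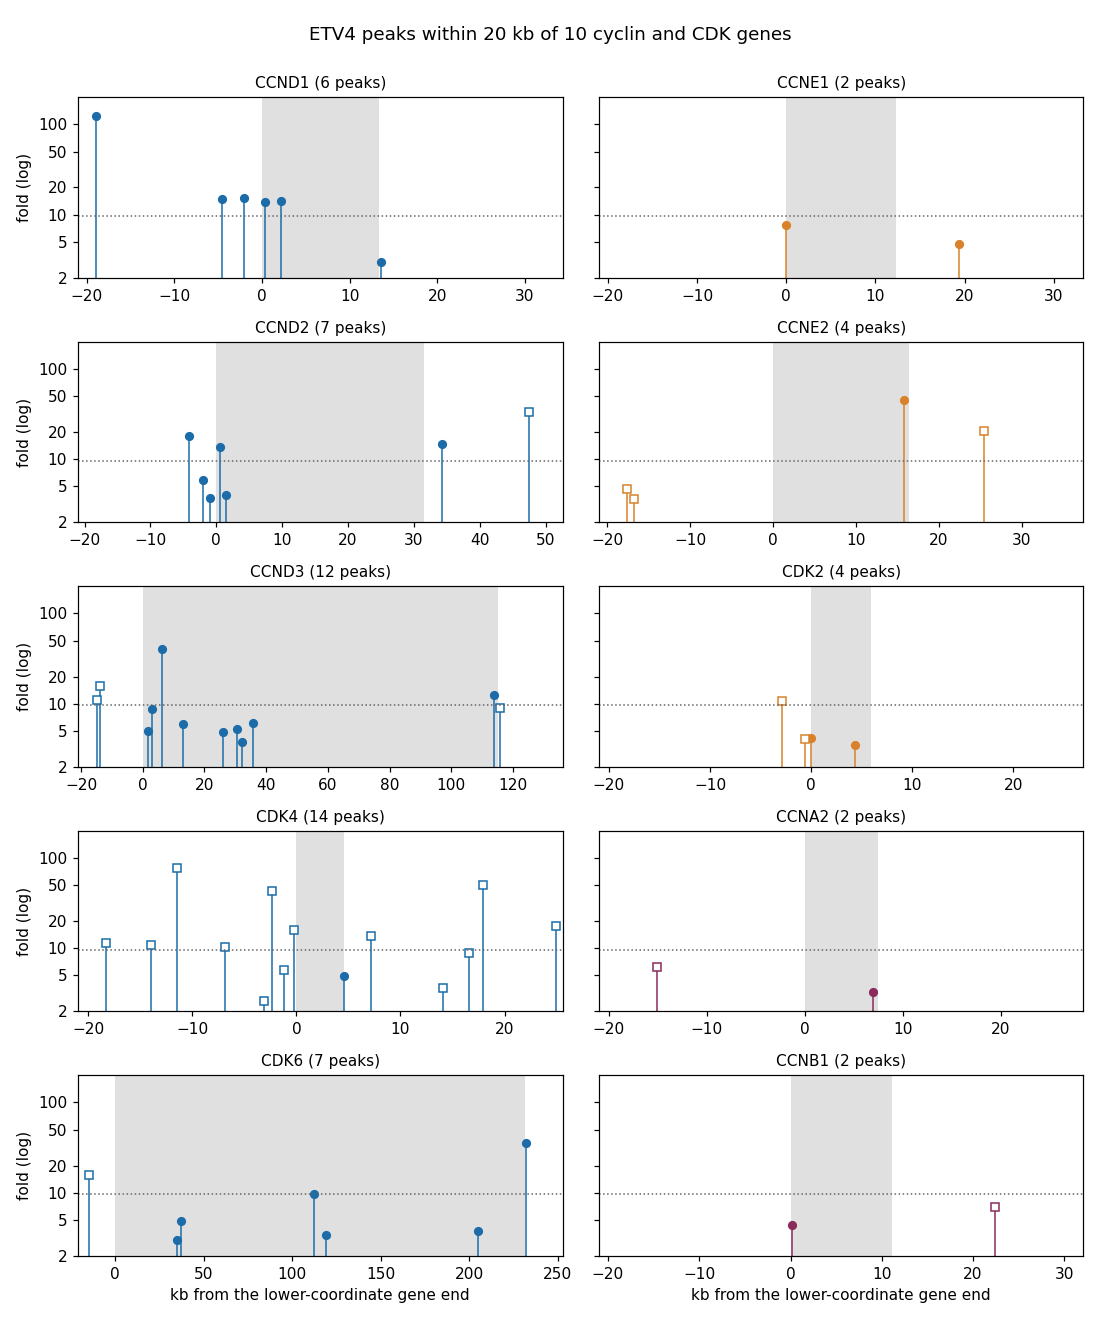
Fold enrichment (log axis) of each ETV4 peak against the distance of its summit from the lower-coordinate end of the gene in kb, for the 10 genes; blue, G1; orange, S entry; purple, S phase to mitosis. Grey marks the gene span, the dotted line the median fold of all peaks (9.63), filled circles the peaks whose nearest protein-coding gene is the named gene and open squares the others; CDK4 has 1 filled circle among 14 peaks, whereas all 6 peaks of CCND1 are filled.

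The counts per gene spread from 2 to 14. CDK4 had 14 peaks and CCND3 had 12, more than 98.9% and 98.2% of all protein-coding genes, respectively. CCND2 and CDK6 had 7 each, CCND1 had 6, and CCNE2 and CDK2 had 4 each. CCNE1, CCNA2 and CCNB1 had 2 each, which is also the median over all protein-coding genes. Window length changed this order. CDK6, the longest of the genes at 231653 bp, had 2.58 peaks per 100 kb and fell near the middle of all protein-coding genes (47.0th percentile), whereas CDK4, at 4584 bp, had 31.4 per 100 kb, with 99.99% of the genes below it. Most of this density belonged to neighbours, since CDK4 was the nearest protein-coding gene for 1 of its 14 peaks. Over the 10 genes, 35 of the 60 peaks had the listed gene as the nearest protein-coding gene.

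**Figure D2:**
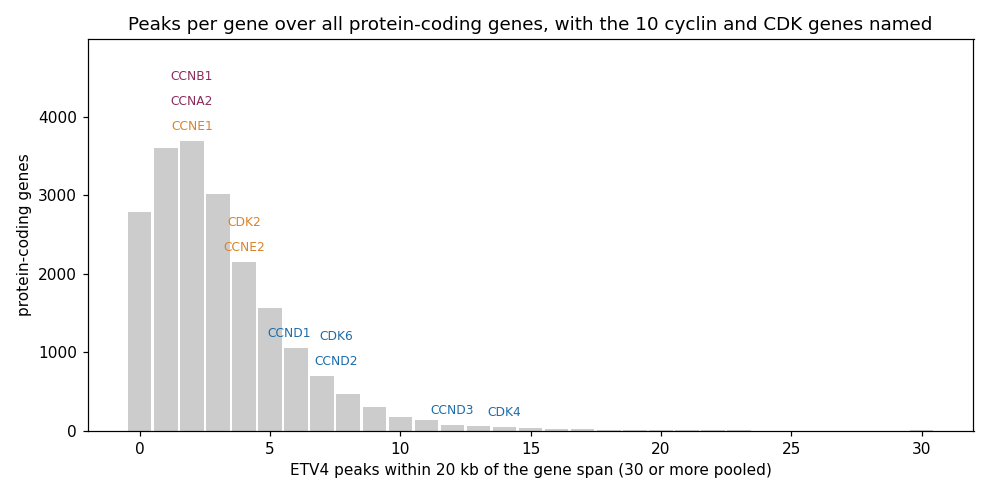
Number of protein-coding genes (bars) by their number of ETV4 peaks within 20 kb, with genes of 30 or more peaks pooled, and the 10 cyclin and CDK genes written above their bars in the colors of their groups (blue, G1; orange, S entry; purple, S phase to mitosis). CCNE1, CCNA2 and CCNB1 stand at the median of 2 peaks, and CCND3 and CDK4 in the right tail at 12 and 14.

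The D-type cyclins bind and activate CDK4 and CDK6, and each of the 3 genes had peaks of fold over 10 in a different arrangement. CCND1 lies on chromosome 11 from 69641156 to 69654474. Its strongest peak was far from the gene, from 69621816 to 69622550, with the summit 18916 bp below the lower end. This peak had a fold of 125 (111 to 140), a −log10 q of 564 and 297 fragments at the summit, where the control level was 1.38. Of all 54389 peaks, 99.6% had a lower fold, and it was the strongest of the 60. No other RefSeq gene lay within 1 kb of its summit, and CCND1 was the nearest protein-coding gene. A cluster of 4 peaks of nearly equal strength surrounded the lower end of CCND1. Their folds were 14.9 (10.7 to 20.2), 15.2 (11.3 to 19.9), 13.7 (10.1 to 18.3) and 14.3 (10.8 to 18.7) in the order of coordinates, with widths from 460 to 1492 bp, and their intervals overlapped. The peak of 13.7 covered the lower end, with the summit 292 bp inside the gene. That of 14.3 was the strongest start peak because its interval came within 1 kb of this end, though its summit was 2181 bp inside the gene. A weak sixth peak adjoined the upper end, with a fold of 2.97 (1.52 to 5.38) and 9 fragments.

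CCND2 lies on chromosome 12 from 4273762 to 4305353, and its lower part overlaps the antisense RNA gene CCND2-AS1. Around the lower end, 5 peaks ran from 4269188 to 4275366 with folds of 17.9, 5.94, 3.72, 13.5 and 4.03. The peak with a fold of 13.5 (9.47 to 18.7) covered the lower end itself, with a summit 510 bp inside the gene, and the peak of 17.9 (13.2 to 23.6) was 4197 bp below it. Both summits lay within CCND2-AS1, so these peaks cannot be assigned to 1 of the genes by position. Beyond the upper end, a peak of fold 14.6 (10.9 to 19.2) had its summit 2751 bp away. The strongest of the 7 peaks, with a fold of 33.6 (27.4 to 40.9) and 99 fragments, lay 15889 bp from the upper end of CCND2 at an end of TIGAR, a regulator of glycolysis, which was its nearest protein-coding gene.

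CCND3 lies on chromosome 6 from 41934933 to 42050035 on the minus strand and has 3 starts in the promoter entries, at 42048688, 41941808 and 41939205. Its strongest peak, from 41938775 to 41942340, covered both of the inner starts. This peak was 3566 bp wide, with a fold of 39.8 (35.1 to 45.0), a −log10 q of 316 and 254 fragments over a control level of 5.40, the highest control level of the 60 peaks. The list gives it a single summit, 786 bp downstream of the start at 41941808. The outermost start had a separate peak of 809 bp and a fold of 12.5 (9.61 to 15.9), with a summit 120 bp upstream. The intervals of these peaks did not overlap. Between the outer and the inner starts the gene held 5 weak peaks with folds from 3.76 to 6.13, and downstream of the inner starts a pair of peaks with folds of 8.66 and 5.03. The remaining 3 of the 12 peaks were inside the overlapping genes MED20 and BYSL (11.0 and 15.7) and at TAF8 (8.99).

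The kinases CDK4 and CDK6, close relatives that partner the D-type cyclins, differed at their starts. CDK4 lies on chromosome 12 from 57747727 to 57752310 on the minus strand. Its own start carried a peak from 57752074 to 57752641 with a fold of 4.88 (3.14 to 7.28), a −log10 q of 8.64 and 22 fragments. The summit was 17 bp upstream of the start. Of all peaks, 17.3% had a lower fold. The other 13 peaks within 20 kb had folds from 2.64 to 76.7, and their summits lay outside CDK4 and within 1 kb of neighbouring genes. That from 57747067 to 57747782, with a fold of 15.9 (11.9 to 20.8) and 51 fragments, reached into the 3′ end of CDK4. Its summit was 252 bp beyond that end. The strongest of the 13, from 57735725 to 57739312, was inside AGAP2, an ARF GTPase-activating protein. It had a fold of 76.7 (66.9 to 87.4), a width of 3588 bp and 221 fragments. Further peaks of 50.2 (41.5 to 60.1) and 43.2 (36.5 to 50.7) were inside CYP27B1, the vitamin D hydroxylase, and TSPAN31, a tetraspanin whose gene overlaps the 3′ part of CDK4.

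CDK6 lies on chromosome 7 from 92604921 to 92836573 on the minus strand. A single peak from 92833117 to 92837370 covered both of its listed starts, 4254 bp wide and the widest of the 60 peaks. Its fold was 35.4 (30.1 to 41.4), its −log10 q 190 and its pileup 154 fragments over a control of 3.38, with the summit 135 bp upstream of the outer start. The end of the antisense RNA gene CDK6-AS1 lies in the same peak. The start peak of CDK6 was thus above that of CDK4, and their intervals did not overlap. The control level at the CDK4 summit was 3.71, close to that at CDK6. Within the body of CDK6, 5 peaks had folds from 2.97 to 9.78. The seventh peak, with a fold of 15.5 (12.1 to 19.7), was at an end of FAM133B.

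The 250 bases upstream of the 6 listed starts of CDK6, CCND3 and CDK4, each overlapped by a peak, are shown to set their sequence beside the peak strength, with each GGAA or its complement TTCC, the core of ETS sites, in capitals. The sequences are from RefSeq on GRCh38.p14, written 5′ to 3′ on the strand of the gene and ending at the base before the start.
CDK6, outer start, chr7:92836574-92836823, minus strand: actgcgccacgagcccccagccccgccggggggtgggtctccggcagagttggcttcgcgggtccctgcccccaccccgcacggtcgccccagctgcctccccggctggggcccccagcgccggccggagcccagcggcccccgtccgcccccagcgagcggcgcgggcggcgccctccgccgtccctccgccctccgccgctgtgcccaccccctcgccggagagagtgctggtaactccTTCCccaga
CDK6, inner start, chr7:92833960-92834209, minus strand: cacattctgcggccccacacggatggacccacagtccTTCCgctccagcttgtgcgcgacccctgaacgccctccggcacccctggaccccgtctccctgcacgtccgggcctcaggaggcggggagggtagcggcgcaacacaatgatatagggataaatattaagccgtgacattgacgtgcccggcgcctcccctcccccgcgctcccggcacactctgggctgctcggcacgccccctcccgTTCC
CCND3, outermost start, chr6:42048689-42048938, minus strand: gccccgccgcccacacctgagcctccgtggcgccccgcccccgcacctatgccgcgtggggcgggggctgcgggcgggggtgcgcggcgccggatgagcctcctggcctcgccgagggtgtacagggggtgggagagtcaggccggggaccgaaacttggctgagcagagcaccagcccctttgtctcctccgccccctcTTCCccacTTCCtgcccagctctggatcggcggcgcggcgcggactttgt
CCND3, start at 41941808, chr6:41941809-41942058, minus strand: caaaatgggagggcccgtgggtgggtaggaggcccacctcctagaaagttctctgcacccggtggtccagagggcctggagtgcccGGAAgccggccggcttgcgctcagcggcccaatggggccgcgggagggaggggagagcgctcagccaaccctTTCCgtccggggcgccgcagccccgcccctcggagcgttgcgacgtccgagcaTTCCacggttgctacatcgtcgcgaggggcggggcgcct
CCND3, start at 41939205, chr6:41939206-41939455, minus strand: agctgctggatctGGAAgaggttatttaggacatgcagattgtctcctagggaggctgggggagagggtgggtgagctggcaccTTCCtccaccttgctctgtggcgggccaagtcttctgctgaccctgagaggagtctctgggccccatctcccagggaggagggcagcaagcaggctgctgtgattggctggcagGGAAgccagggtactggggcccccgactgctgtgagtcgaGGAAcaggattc
CDK4, chr12:57752311-57752560, minus strand: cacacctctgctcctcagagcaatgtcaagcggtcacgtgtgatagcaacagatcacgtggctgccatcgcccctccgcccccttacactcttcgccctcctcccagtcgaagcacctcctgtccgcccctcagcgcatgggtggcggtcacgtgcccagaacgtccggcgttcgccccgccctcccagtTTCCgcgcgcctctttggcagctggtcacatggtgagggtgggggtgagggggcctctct

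Under the CDK6 peak of fold 35.4, the outer window contained 1 GGAA and the inner window 2, on both strands together. Under the CCND3 peak of fold 39.8, the windows of the starts at 41941808 and 41939205 contained 3 and 4. The outermost CCND3 window, under a peak of 12.5, contained 2, and the CDK4 window, under a peak of 4.88, contained 1. Over 22199 windows of protein-coding genes the median was 3, and 92.5% had at least 1. The longer ETS sequence CCGGAA was present at the CCND3 start at 41941808 and in 18.0% of all windows. AGGAAG was present at the outermost CCND3 start, at that at 41939205 and in 28.7% of all windows. Both contain GGAA, so their matches are counted there too. The single GGAA of CDK4 was 41 bp from the summit and that of the outer CDK6 start 128 bp, measured from the second base of the match. GC content was 80.0% and 67.6% at the outer and inner CDK6 starts, 74.4%, 71.2% and 61.2% at the CCND3 starts from the outermost inward, and 65.6% at CDK4, against a median of 62.0%. A match of letters is a description and does not show that ETV4 contacts it.

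The E-type cyclins activate CDK2 at the entry into S phase, and their peaks differed in strength. CCNE1 lies on chromosome 19 from 29811991 to 29824312 on the plus strand. Its start was covered by a peak from 29811116 to 29812771, 1656 bp wide, with a fold of 7.72 (5.52 to 10.5), a −log10 q of 21.9 and 38 fragments, and its summit was 27 bp downstream of the start. The only other peak within 20 kb, 6813 bp beyond the upper end, had a fold of 4.71 (3.18 to 6.73). No other RefSeq gene lay within 1 kb of the summit of either peak, and CCNE1 was the nearest protein-coding gene of both. Control levels at these summits were 4.05 and 5.16, where the median peak of the list had 1.67; their part in the low folds was not tested. The kinase gene CDK2, on chromosome 12 from 55966830 to 55972789, had 4 peaks. The peak at its lower end, from 55966782 to 55967107, had a fold of 4.18 (2.36 to 6.93) and 13 fragments, with the summit 11 bp inside the gene. A neighbouring peak 634 bp below that end had a fold of 4.09 (2.16 to 7.21), and another inside the gene 3.46 (1.71 to 6.45). The highest of the 4, with a fold of 10.7 (7.01 to 15.7) and 24 fragments, was 2841 bp below the lower end and inside PMEL, a melanosome protein. Its interval overlapped that of the peak at 4.09 but lay just above those of the peaks at 4.18 and 3.46. PMEL also lay within 1 kb of the summits of the peaks at 4.18 and 4.09. CDK2 was not the nearest protein-coding gene of the peak at 4.09, and position alone cannot assign these peaks.

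Cyclin A2 and cyclin B1, which carry the cell from S phase through mitosis, had 2 peaks each, like CCNE1, and the lowest maxima of the set. CCNA2 lies on chromosome 4 from 121816444 to 121823883 on the minus strand. Its start peak, from 121823265 to 121823549, had a fold of 3.24 (1.75 to 5.59), a −log10 q of 2.57 and 11 fragments, and 1.28% of all peaks had a lower fold. The summit was 511 bp downstream of the start, and with a window of 250 bp in place of 1 kb CCNA2 had no start peak. BBS7, which encodes a subunit of the ciliary BBSome, lies within 1 kb of the same summit. The second peak of CCNA2, at an end of EXOSC9, a subunit of the RNA exosome, had a fold of 6.14 (3.55 to 10.03). CCNB1 lies on chromosome 5 from 69167150 to 69178245 on the plus strand. Its start peak, from 69166989 to 69167507, had a fold of 4.38 (2.53 to 7.15), a −log10 q of 5.21 and 14 fragments, with the summit 162 bp downstream of the start. The second peak, at an end of the kinetochore gene CENPH and of LOC112267932, had a fold of 6.94 (4.26 to 10.8) and began 10979 bp beyond the upper end of CCNB1. At both genes the peak away from the start had the higher fold, but the intervals overlapped.

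The same upstream windows of CCNE1, CCNB1 and CCNA2 are shown for comparison with the G1 genes, again with GGAA and TTCC in capitals.
CCNE1, chr19:29811741-29811990, plus strand: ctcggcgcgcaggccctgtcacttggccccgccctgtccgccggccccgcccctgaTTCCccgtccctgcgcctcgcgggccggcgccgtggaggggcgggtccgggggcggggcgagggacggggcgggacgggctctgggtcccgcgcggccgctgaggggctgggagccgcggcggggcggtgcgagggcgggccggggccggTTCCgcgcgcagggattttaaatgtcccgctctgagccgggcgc
CCNB1, chr5:69166900-69167149, plus strand: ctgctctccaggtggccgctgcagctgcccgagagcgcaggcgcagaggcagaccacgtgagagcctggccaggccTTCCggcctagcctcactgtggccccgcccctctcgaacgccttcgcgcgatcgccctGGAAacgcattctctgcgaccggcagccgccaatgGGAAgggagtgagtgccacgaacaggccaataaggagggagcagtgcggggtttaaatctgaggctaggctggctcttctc
CCNA2, chr4:121823884-121824133, minus strand: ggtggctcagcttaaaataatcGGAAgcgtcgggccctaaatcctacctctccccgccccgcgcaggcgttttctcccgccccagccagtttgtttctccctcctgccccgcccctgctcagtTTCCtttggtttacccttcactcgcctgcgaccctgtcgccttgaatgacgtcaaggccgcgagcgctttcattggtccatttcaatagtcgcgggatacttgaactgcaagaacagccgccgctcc

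The CCNB1 window had 3 GGAA cores on both strands together, the first of them within the longer CCGGAA read on the other strand, and CCNE1 and CCNA2 had 2 each. No peak interval overlapped the CCNA2 window. The CCAAT box, bound by NF-Y and common in promoters of mitotic genes, occurred 2 times at CCNB1 and 1 time at CCNA2 on either strand, also 1 time each at the CCND3 starts at 41941808 and 41939205, and in 32.7% of all windows. The GC box GGGCGG, bound by Sp1-type factors, occurred 7 times at CCNE1, 5 times at the outermost CCND3 start, 3 times each at the outer CDK6 start, CDK4 and CCNA2, 2 times at the CCND3 start at 41941808 and 1 time at CCNB1, and in 53.7% of all windows. The exact sequence TTTGAA, a form of the element known from late cell cycle genes, was in 11.0% of all windows and in none of the 9 printed here. Variants of this element were not searched for, so the windows cannot be said to lack it.

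CCNE2 stood apart from the other S-entry genes. The gene lies on chromosome 8 from 94880224 to 94896693. A peak from 94894256 to 94897002 covered its upper end and an end of NDUFAF6, a gene for assembly of respiratory complex I that overlaps it there. This peak had a fold of 44.8 (38.8 to 51.5), a −log10 q of 260, a width of 2747 bp and 195 fragments, with a control level of 3.38. Its summit was 626 bp inside CCNE2. The counting intervals of the start peaks of CCNE2 and CCNE1 did not overlap, with the higher control level, 4.05, at CCNE1. Position alone cannot assign the peak to CCNE2 or to NDUFAF6. Of its other 3 peaks, that of fold 20.4 (16.5 to 24.9) was inside NDUFAF6, and those of 4.70 and 3.66 were inside INTS8.

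Ranked by the strongest start peak, the intervals of neighbouring genes were separated only below the first 3 of the 10 genes. CCNE2 (44.8), CCND3 (39.8) and CDK6 (35.4) came first, and the intervals of neighbours in this order overlapped. CCND1 (14.3) and CCND2 (13.5) followed, and the interval of CCND1 lay wholly below that of CDK6. From CCND1 down through CCNE1 (7.72), CDK4 (4.88), CCNB1 (4.38), CDK2 (4.18) and CCNA2 (3.24), each gene overlapped the next. These genes were not 1 set, since the intervals of CCND1 (from 10.8) and CCND2 (from 9.47) lay wholly above that of CDK4 (up to 7.28). They also lay above those of CCNB1, CDK2 and CCNA2. Ranked by the strongest peak anywhere within 20 kb, the order became CCND1 (125), CDK4 (76.7), CCNE2 (44.8), CCND3, CDK6, CCND2 (33.6), CDK2 (10.7), CCNE1, CCNB1 and CCNA2 (6.14). Here the intervals separated CCND1 from CDK4, CDK4 from CCNE2 and CCND2 from CDK2, and those of the other neighbours overlapped. The 3 upper start peaks were also wide. Of the 60 peaks, 4 were 2 kb or wider (6.67%), those at CCND3, CDK6, CCNE2 and, in AGAP2, near CDK4, against 2.74% of all peaks.

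**Figure D3:**
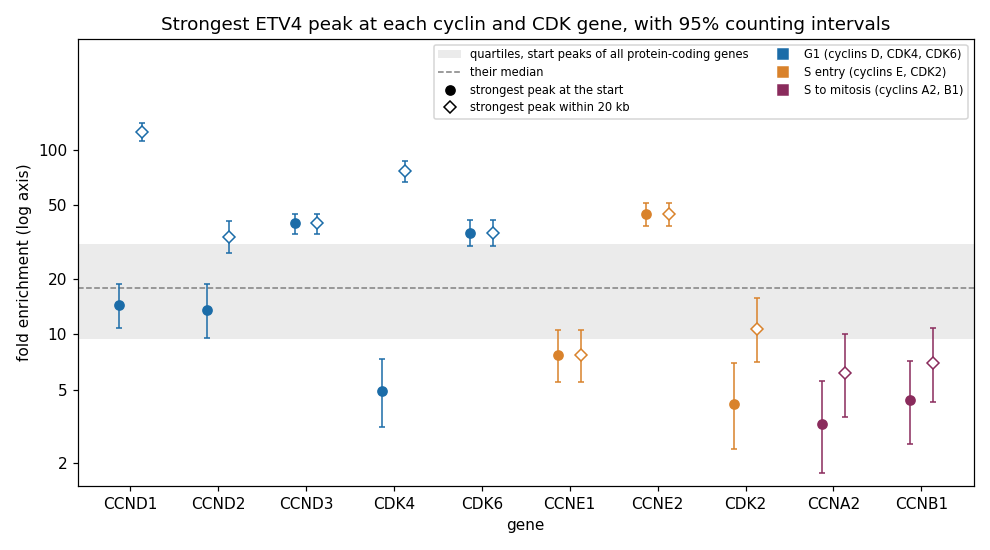
Fold enrichment (log axis) of the strongest start peak (filled circles) and of the strongest peak within 20 kb (open diamonds) for each gene, with 95% Poisson counting intervals; the grey band and dashed line give the quartiles and the median (17.8) of the strongest start peaks over all protein-coding genes that had one. The start peaks of CCND3, CDK6 and CCNE2 stand above the band, whereas those of CDK4, CCNE1, CDK2, CCNA2 and CCNB1 stand below it.

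By phase, the median fold of the strongest start peak was 14.3 over the 5 G1 genes, 7.72 over the 3 S-entry genes and 3.81 over the 2 mitotic genes. The ranges of the first 2 groups overlapped widely, from 4.88 to 39.8 in G1 and from 4.18 to 44.8 at S entry, so the phase did not order these genes. The mitotic genes, at 3.24 and 4.38, did lie below all G1 genes, but the intervals of both CCNA2 (1.75 to 5.59) and CCNB1 (2.53 to 7.15) overlapped that of CDK4 (3.14 to 7.28). Measured as pileup, the medians were 52 fragments, 38 fragments and 12.5 fragments. With 10 genes in 1 library, these group values are a description and were not tested. The median control level was 2.43 at peaks of the G1 genes, 2.89 at those of the S-entry genes and 2.08 at those of the mitotic genes.

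The other genes of the cyclin and CDK families, and regulators of their activity, were counted in the same way. Of 36 other cyclin and CDK genes, 32 (88.9%) had a start peak, and 25 (69.4%) had one with a fold over 10. The median fold was 22.5 over the 32. Of all protein-coding genes, 62.4% had a start peak and 45.5% had one with a fold over 10, with a median of 17.8. The highest were CDK17 (67.3), CDK9 (58.4), the kinase of transcription elongation, and CDK18 (53.4). CDK3, CDK14, CDK15 and CCNB3 had no start peak, although CDK14 had a peak of fold 179 within 20 kb. The mitotic kinase gene CDK1, the partner of cyclins A2 and B1, had a start peak of fold 5.57 (3.08 to 9.41). This was above the start folds of CCNA2 and CCNB1, though the intervals overlapped. Elsewhere within 20 kb, CDK1 had a peak of 43.4. CCNB2, the gene of the second B-type cyclin, had a start peak of 10.3 (7.15 to 14.4).

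Of 20 regulators, 19 (95%) had a start peak and 14 (70%) had one with a fold over 10, against 62.4% and 45.5% of all protein-coding genes. The median was 19.5 over the 19. The highest were CDC25B (53.3), a phosphatase that activates CDKs, FBXW7 (52.1), which targets cyclin E for destruction, and ANAPC11 (45.8), a subunit of the ubiquitin ligase that degrades cyclins in mitosis. FZR1, an activator of that ligase, had no start peak. CDC20 (36.3, 29.7 to 43.9) and PLK1 (26.0, 19.9 to 33.3), which act in mitosis, had intervals wholly above those of CCNB1 and CCNA2. AURKB (8.92, 6.29 to 12.3), CKS2 (7.68, 5.26 to 10.9) and AURKA (4.92, 2.79 to 8.17) lay below the lower quartile of 9.37, and their intervals overlapped that of CCNB1. Beside these lists, the members had a median start fold of 10.6, against 17.8 over all protein-coding genes with a start peak. Of the members, 5 of 10 were over a fold of 10, against 45.5% of all protein-coding genes.

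**Figure D4:**
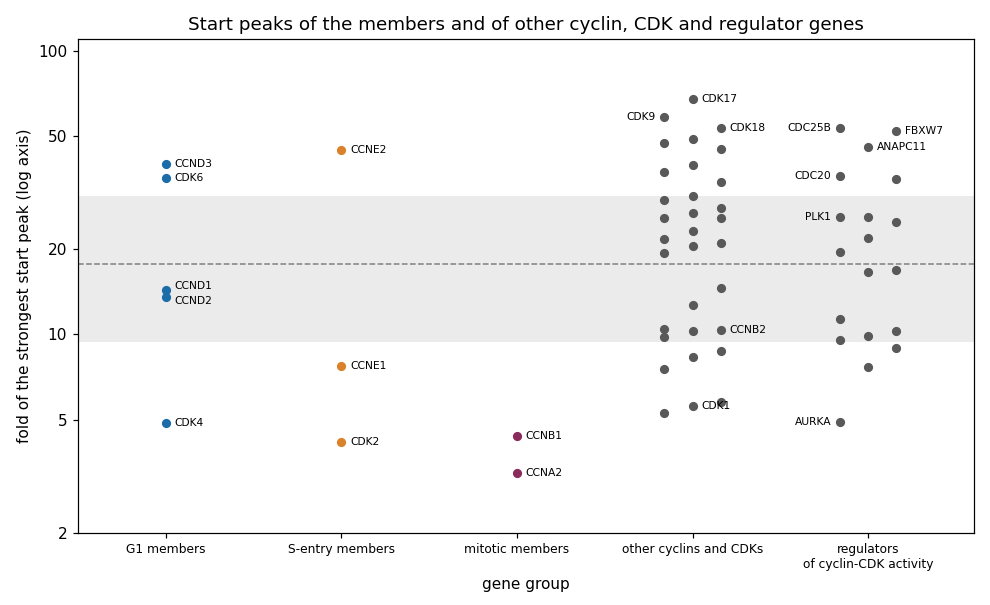
Fold enrichment (log axis) of the strongest start peak, 1 point per gene, for the G1, S-entry and mitotic members and for the lists of 36 other cyclins and CDKs and 20 regulators, with genes without a start peak left out and only some points named. The band and dashed line are the quartiles and median over all protein-coding genes with a start peak, and CCNA2 (3.24) is the lowest point.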

How the data were processed

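The peak list of 1 anti-Flag immunoprecipitate was used; the input library entered only as the control of the peak caller. The authors deposited, for each peak, an hg38 interval, a summit, the fold enrichment as a ratio over the control, and the −log10 p and −log10 q at the summit. The submitters' processing notes name Bowtie2 2.4.1, SAMtools, MACS2 2.2.7.1 and deepTools 3.5.0, without parameters. The handling of duplicate reads is not given in the sources used here. The antibody is from CST in the methods and from Sigma in the labels.

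Genes and starts came from RefSeq tables on GRCh38.p14, with positions 1-based. Summit pileups were solved from the fold, taken as pileup plus 1 over control plus 1, and the Poisson p-value. The largest distance from a whole number was 0.00914, and the solver was tested on simulated data. Exact Poisson intervals were given for pileups and carried to folds, and Wilson intervals for shares.

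The members, lists and groups were chosen with earlier results of these data known. Named were the members, genes within 1 kb of the summit of their strongest or start peak, CDK1 and CCNB2, and from each list the 3 highest start peaks and genes with none. Other neighbours (MED20, BYSL, TAF8, CYP27B1, TSPAN31, FAM133B and INTS8) and CDC20, PLK1, AURKA, AURKB and CKS2 were named after their values were seen. The alternatives changed the distance, the window, the position used and the thresholds. The scripts ran under Python 3.11.15 with scipy 1.17.1, pandas 2.3.3, numpy 2.4.6 and, for figures, matplotlib 3.10.9.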

Additional observations from a re-analysis of the deposited data

How the results depend on the processing

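No paired analysis was possible because there was 1 immunoprecipitate. The 60 peaks near the 10 genes became 27 with a fold over 10, 36 with a −log10 q over 10, and 35 when the gene had to be the nearest protein-coding gene. Distances of 5 kb to 50 kb, summits in place of intervals and a fold over 5 kept the count within 1.5 times (40 to 87). The 10 genes with a start peak became 6 with a fold over 5, 5 with a fold over 10 and 6 with a −log10 q over 10. The median strongest fold rose to 39.8 for the G1 genes, 10.7 for the S-entry genes and 6.54 for the mitotic genes when all peaks within 20 kb counted, and to 10.7 for the S-entry genes within 3 kb. As pileup it was 52, 38 and 12.5 fragments, another unit. The share with a fold over 10 stayed within its interval (36.6% at 5 kb, 44.8% at 50 kb). Weak start peaks rest on 11 to 22 fragments, so their order cannot be given at this depth.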
